A study of Rattus norvegicus with 6 samples.

Results

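Rat marrow cultures from the skull held less RNA of most factors that place and shape the limbs than cultures from the hindlimb bones. The genes described are 10 transcription factor genes, Tbx2, Tbx3, Tbx4, Tbx5, Tbx15, Tbx18, Pitx1, Shox2, Lmx1b and Hand2, found by symbol in the deposited count table, where each has 1 row among 30498 genes. RNA sequencing was done on cultured rat mesenchymal stem cells with a wild-type genotype label. The 3 libraries called rcMSC came from cranial bone marrow, the 3 called rbMSC came from bone marrow of femurs and tibias, and no treatment, age or strain was stated. The single comparison the design implies is rcMSC against rbMSC, that is, how the expression of cells from the 2 marrow sites differs.

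In vertebrate embryos the limbs arise as buds at set places along the trunk, and several of these genes decide which limb forms and where. Tbx5 marks the forelimb field, and Pitx1 and its target Tbx4 mark the hindlimb field. Shox2 controls growth of the proximal limb bones, Hand2 sets up the posterior signalling centre of the bud, Lmx1b gives dorsal identity, and Tbx2, Tbx3, Tbx15 and Tbx18 pattern limb and body wall mesenchyme. Femur and tibia are hindlimb bones, whereas the skull vault forms from neural crest and head mesoderm, outside the limb fields.

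Libraries held 26179769 to 26928079 counts in rcMSC and 21340290 to 25170868 in rbMSC, so that 1 count equalled 0.0364 to 0.0468 CPM (counts scaled to a common library size) after TMM scaling, which corrects for library size and composition. rcMSC replicate 3 stood apart from its group. Over genes with at least 20 counts in a pair, the chi-square per degree of freedom was 42.8 and 42.0 for its pairs with rcMSC replicates 1 and 2, and 2.69 to 3.16 for the other pairs within a group. Of 12 mesenchymal stromal markers all were tested, with 6 higher and 5 lower in rcMSC. The 16 macrophage markers summed to 704 to 732 CPM in rcMSC and 1159 to 1165 CPM in rbMSC, with 0 higher and 11 lower and none at 0. The pericyte markers summed to 93.1 to 181 CPM in rcMSC and 845 to 855 CPM in rbMSC, with 5 of the 6 tested lower and none at 0. The 7 endothelial markers summed to 15.9 to 17.8 CPM in rcMSC and 13.8 to 16.4 CPM in rbMSC. Among skeletal muscle markers, which summed to 9.08 to 10.2 CPM in rcMSC and 22.4 to 25.9 CPM in rbMSC, Myod1 and Pax7 had no count in any library. Of the 3 tested, Acta1 was lower (log2 fold change -1.91) and Myh3 higher (4.20, or 5.15 without rbMSC replicate 2). Osteoblast markers summed to 121.7 to 333.3 CPM in rcMSC and 749.2 to 771.9 CPM in rbMSC, with 4 of the 6 tested lower, Runx2 higher and Bglap at 0. Most of the rbMSC sum was Spp1 (mean 645 CPM), which was not called (edgeR adjusted p = 0.103). In rcMSC replicates 1 to 3 Spp1 had 33.5, 32.4 and 246.1 CPM. Chondrocyte markers summed to 98.8 to 142.9 CPM in rcMSC and 422 to 433 CPM in rbMSC, with 3 of the 4 tested lower and Col2a1 higher. Meningeal markers summed to 66.8 to 68.9 CPM in rcMSC and 122.5 to 130.3 CPM in rbMSC, with 3 higher and 3 lower, and Ptgds and Slc6a13 at 0. This list includes Tbx18, itself 1 of the 10 genes described and 1 of the 3 lower. Of the sum, Tbx18 made up a mean of 12.5 CPM in rcMSC and 69.2 CPM in rbMSC. Beside these marker counts, 22.6% of all tested genes were higher and 23.2% lower in rcMSC. The part of other cell types in the results was not tested.

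Of the 10 genes, 8 were lower and 0 higher in rcMSC at an edgeR adjusted p under 0.05. Over the 14836 genes tested, 23.2% were lower and 22.6% higher by the same rule. In 8 of the 10 the rcMSC and rbMSC libraries did not overlap in CPM, against 57.1% of all tested genes. The median log2 fold change of the 10 genes, rcMSC over rbMSC, was -2.12, beside 0.02 over all tested genes. A fall of at least a factor of 2 was called for 7 members, against 8.53% of all tested genes. All 10 passed the low-count filter, Pitx1 and Hand2 through their rbMSC libraries alone. Tbx5 reached the filter level in 1 rcMSC library and 3 rbMSC libraries, and Tbx4 in 2 rcMSC libraries and 1 rbMSC library. In bulk cultures, fewer cells that make a transcript and less of it per cell cannot be told apart. Without rcMSC replicate 3 the count was also 8 lower and 0 higher, but more genes were called in all, 4558 lower and 4512 higher of 15096.

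**Figure D1:**
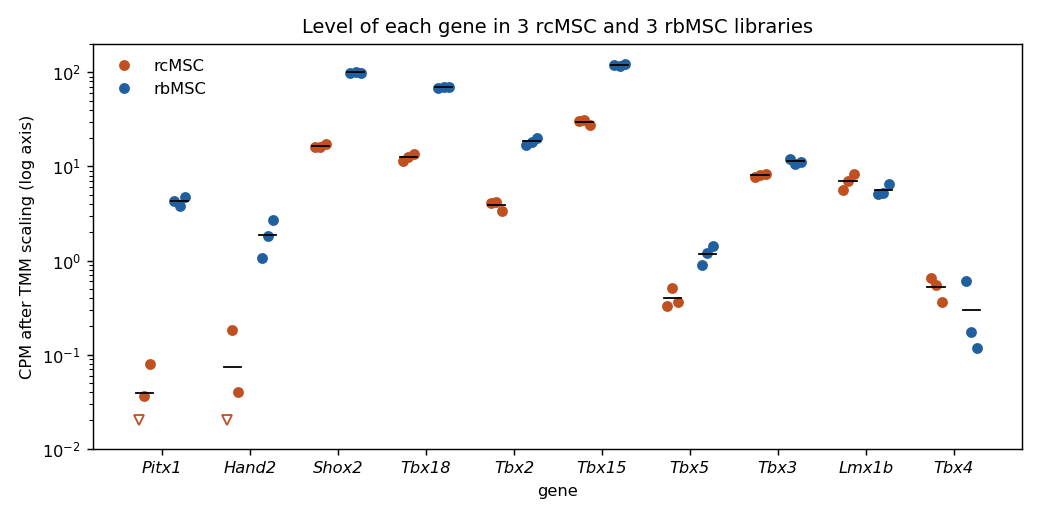
CPM after TMM scaling (log axis) of each gene in the 3 rcMSC and 3 rbMSC libraries, 1 point per library, with the group mean as a line. Open triangles stand for libraries with 0 counts and are drawn at a fixed low position. The groups overlap only for Lmx1b and Tbx4.

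Pitx1, the homeobox factor that gives the hindlimb its identity, differed most. Its counts were 0, 1 and 2 in rcMSC replicates 1 to 3, against 91, 88 and 120 in rbMSC replicates 1 to 3. It was nearly absent from every skull library and present in every hindlimb library. The ratio of rbMSC to rcMSC was 114, with an exact binomial 95% interval of 38.6 to 555 that covers counting error only. The edgeR adjusted p was 8.82e-07. The fitted log2 fold change was -6.65 and moved to -7.52 without rcMSC replicate 3, since so few rcMSC counts set it. Pitx1 (ENSRNOG00000011423) spans 8794134 to 8800291 of chromosome 17 in mRatBN7.2, the build of all gene coordinates given here.

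Hand2, a basic helix-loop-helix factor upstream of Shh in the mouse limb bud, was the other gene close to 0 in the skull cultures. It had 0, 5 and 1 counts in rcMSC and 23, 42 and 68 in rbMSC. The groups did not overlap, though the rbMSC libraries themselves spread over a wide range. The fitted change was -4.55 on the log2 scale (SE 0.66, edgeR adjusted p = 0.000344), or -6.28 without rcMSC replicate 2, which holds 5 of the 6 rcMSC counts. Hand2 (ENSRNOG00000060448, chromosome 16, 32917823 to 32919891) was counted over an annotated length of 673 bases, the shortest of the 10. Its relative Hand1 had 2 counts in rcMSC and 0 in rbMSC, too few to compare.

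Shox2, the homeobox gene needed in the mouse for the humerus and femur, had the highest mean level of the 10 per length in both groups, though in rcMSC its libraries overlapped those of Tbx15. Its level was 16.2, 16.2 and 17.4 CPM in rcMSC and 98.1, 101.6 and 99.4 CPM in rbMSC. Libraries of a group lay close together and far from the other group. The log2 fold change was -2.59 (SE 0.07, edgeR adjusted p = 1.17e-09), lower in rcMSC by a factor of 6.02. Per length, Shox2 had 6.50 ± 0.27 RPKM (CPM divided by gene length in kilobases) in rcMSC and 39.1 ± 0.69 RPKM in rbMSC (SD, n = 3 each). Among all tested genes of a group it ranked above 55.8% in rcMSC and above 92.4% in rbMSC. Shox2 (ENSRNOG00000012478) lies on chromosome 2 from 151217552 to 151227143.

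**Figure D2:**
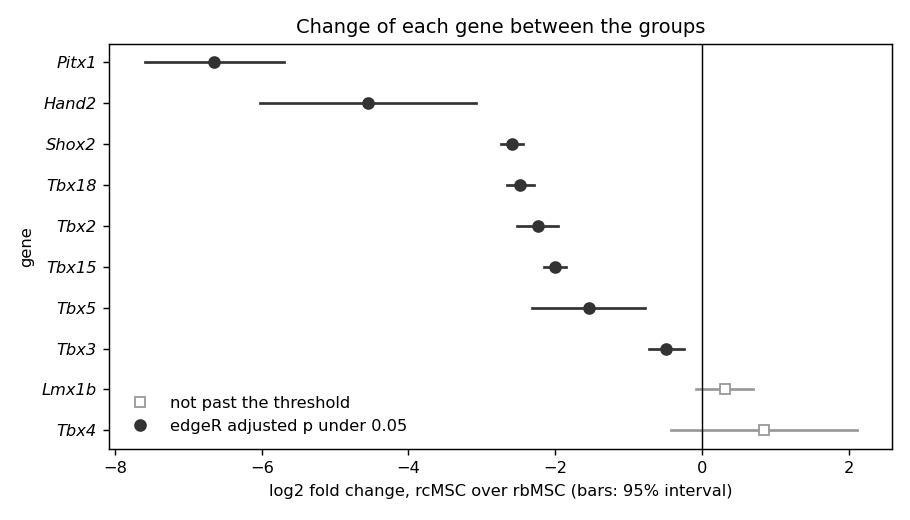
Log2 fold change of each gene, rcMSC over rbMSC, with its 95% interval from the edgeR fit. Filled circles passed an adjusted p of 0.05 and open squares did not. Pitx1 and Hand2 lie farthest below 0 with the wide intervals of low counts, Shox2, Tbx18, Tbx2 and Tbx15 lie between -2.59 and -2.01, and the intervals of Lmx1b and Tbx4 include 0.

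Tbx15 and Tbx18 are sister T-box genes that pattern limb girdle and body wall mesenchyme, and Tbx18 is also made by mural cells of vessels. Tbx15 had 30.5, 31.3 and 27.5 CPM in rcMSC and 120.4, 115.7 and 122.5 CPM in rbMSC. Tbx18 had 11.3, 12.5 and 13.6 CPM in rcMSC and 68.0, 69.8 and 70.0 CPM in rbMSC. Both were several times lower in all skull libraries and remained well detected there. The pericyte markers moved with Tbx18, with a median log2 fold change of -4.03 over the 6 tested, and their part in its fall was not tested. The log2 fold change of Tbx15 was -2.01 (SE 0.07, edgeR adjusted p = 8.69e-09), and that of Tbx18 was -2.47 (SE 0.08, edgeR adjusted p = 7.27e-09). The log2 ratio of Tbx15 to Tbx18 counts within a library was 1.43, 1.33 and 1.01 in rcMSC and 0.82, 0.73 and 0.81 in rbMSC. Tbx18 was thus the smaller of the pair in all libraries, and more so in rcMSC. The difference of 0.47 between the groups had an exact two-sided permutation p = 0.1, the smallest that 3 against 3 libraries can give, and an adjusted p of 0.1 over the 3 ratios computed. Tbx15 (ENSRNOG00000019565) lies on chromosome 2 from 186576676 to 186687663, and Tbx18 (ENSRNOG00000010685) on chromosome 8 from 88652054 to 88680058.

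Promoter sequences were at hand for 6 of the 10 genes, from RefSeq in build GRCr8, each with 250 bases before and 50 after the start site. All 6 are shown, those of Tbx15, Tbx18, Hand2 and Tbx5, which were called lower in rcMSC, and those of Lmx1b and Tbx4, which did not pass the threshold. Each runs 5′ to 3′ on the strand of its gene, at chr2:189265123-189265422 (plus strand, Tbx15), chr8:97559916-97560215 (minus strand, Tbx18), chr16:37931439-37931738 (minus strand, Hand2), chr12:42395310-42395609 (minus strand, Tbx5), chr3:37338508-37338807 (minus strand, Lmx1b) and chr10:71228306-71228605 (plus strand, Tbx4). Capitals mark CCAAT boxes, written CCAAT or, on the other strand, ATTGG.
Tbx15: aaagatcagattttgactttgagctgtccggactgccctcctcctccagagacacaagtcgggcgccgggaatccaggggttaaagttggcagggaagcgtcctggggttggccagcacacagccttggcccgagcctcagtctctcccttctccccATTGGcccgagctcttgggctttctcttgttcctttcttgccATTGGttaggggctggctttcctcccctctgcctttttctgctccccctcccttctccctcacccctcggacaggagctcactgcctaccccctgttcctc
Tbx18: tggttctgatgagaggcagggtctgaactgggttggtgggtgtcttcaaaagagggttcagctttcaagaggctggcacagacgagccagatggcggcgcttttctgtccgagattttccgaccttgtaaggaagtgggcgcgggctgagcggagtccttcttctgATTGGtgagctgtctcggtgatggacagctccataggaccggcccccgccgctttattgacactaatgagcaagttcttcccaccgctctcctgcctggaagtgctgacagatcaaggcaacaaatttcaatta
Hand2: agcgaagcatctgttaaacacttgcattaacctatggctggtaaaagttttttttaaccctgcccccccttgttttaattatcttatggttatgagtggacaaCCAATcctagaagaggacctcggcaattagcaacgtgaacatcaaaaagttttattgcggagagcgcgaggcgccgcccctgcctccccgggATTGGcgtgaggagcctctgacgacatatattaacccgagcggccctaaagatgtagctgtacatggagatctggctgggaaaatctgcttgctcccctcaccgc
Tbx5: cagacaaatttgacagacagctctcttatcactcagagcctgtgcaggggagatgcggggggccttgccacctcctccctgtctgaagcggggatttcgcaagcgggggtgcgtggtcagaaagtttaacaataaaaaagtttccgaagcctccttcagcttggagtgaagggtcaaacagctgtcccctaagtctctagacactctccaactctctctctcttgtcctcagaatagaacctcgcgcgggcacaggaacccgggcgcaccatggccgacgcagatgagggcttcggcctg
Lmx1b: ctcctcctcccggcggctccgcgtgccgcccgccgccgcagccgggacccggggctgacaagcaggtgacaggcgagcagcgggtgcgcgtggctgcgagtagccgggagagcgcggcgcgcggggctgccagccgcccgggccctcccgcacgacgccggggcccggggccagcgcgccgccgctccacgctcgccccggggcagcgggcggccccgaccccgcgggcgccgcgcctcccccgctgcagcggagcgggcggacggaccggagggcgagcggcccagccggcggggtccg
Tbx4: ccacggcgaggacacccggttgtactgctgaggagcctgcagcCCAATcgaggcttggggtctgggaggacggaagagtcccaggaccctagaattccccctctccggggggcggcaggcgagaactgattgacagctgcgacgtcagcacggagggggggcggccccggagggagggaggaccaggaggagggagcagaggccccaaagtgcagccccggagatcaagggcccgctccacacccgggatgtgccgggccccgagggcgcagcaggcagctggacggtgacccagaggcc
The boxes began 93 and 51 bases before the start site in Tbx15, 84 bases before it in Tbx18, 147 and 55 bases before it in Hand2, and 207 bases before it in Tbx4. The Tbx5 window held none. The Lmx1b window held none, was 84.7% G and C, and had 54 CG pairs, against medians of 51.7% and 7 over the 33469 promoters of the same length. Of the 6 promoters 4 held a CCAAT box, 3 of genes called lower and that of Tbx4, whereas 37.5% of all promoters did. A GC box (GGGCGG, either strand, not in capitals) was in 3 of the 6, with 4 in Lmx1b, 2 in Tbx4 and 1 in Hand2, and in 33.1% of all promoters. Also searched on both strands were TATAAA, the T-box site GGTGTGA and the Hox-Pbx motif TGATNNAT, which 14.2%, 3.83% and 9.1% of all promoters hold and which were in none of the 6. No GC box overlapped a CCAAT box. These matches describe the windows and show neither binding nor a cause.

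The Tbx2 subfamily lies in a pair of linked couples, Tbx2 with Tbx4 on chromosome 10, 42.6 kb apart, and Tbx5 with Tbx3 on chromosome 12, 147 kb apart. Tbx2 and Tbx3 are repressors expressed at the margins of the limb bud and known for holding back cell cycle inhibitors. Tbx2 had 4.12, 4.20 and 3.36 CPM in rcMSC and 17.0, 18.0 and 20.2 CPM in rbMSC. Tbx3 had 7.72, 8.17 and 8.36 CPM in rcMSC and 12.0, 10.7 and 11.3 CPM in rbMSC. The groups were apart for both genes, by far less for Tbx3. The log2 fold change was -2.24 for Tbx2 (SE 0.13, edgeR adjusted p = 3.95e-07) and -0.48 for Tbx3 (SE 0.11, edgeR adjusted p = 0.00427). Of all tested genes, 35.1% had a larger absolute change than Tbx3, and 3.63% a larger one than Tbx2. The order of the sisters turned round, since Tbx2 was at 0.484 times the counts of Tbx3 in rcMSC and at 1.64 times in rbMSC. The log2 ratio was -0.90, -0.96 and -1.31 in rcMSC and 0.51, 0.75 and 0.85 in rbMSC, and its difference of -1.76 had the exact permutation p = 0.1. Tbx2 (ENSRNOG00000003517) runs from 70679518 to 70688529 and Tbx3 (ENSRNOG00000008706) from 36881445 to 36893708.

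Tbx4 and Tbx5, the hindlimb and forelimb T-box genes, were both scarce. Tbx5 had 9, 14 and 9 counts in rcMSC and 19, 28 and 36 in rbMSC. Tbx4 had 18, 15 and 9 counts in rcMSC and 13, 4 and 3 in rbMSC. The Tbx5 groups were apart, and those of Tbx4 overlapped through rbMSC replicate 1. Tbx5 fell by 1.55 on the log2 scale (SE 0.34, edgeR adjusted p = 0.00445). For Tbx4 the log2 fold change was 0.85, with a 95% interval of -0.42 to 2.11 (edgeR adjusted p = 0.25), and without rbMSC replicate 1 it was 1.82 (adjusted p = 0.0392). At this depth the hindlimb cultures showed no call of a higher Tbx4 level, and the interval allows rcMSC to lie lower by 0.42 or higher by 2.11 on the log2 scale. The log2 ratio of Tbx4 to Tbx5 counts was 0.96, 0.10 and 0.00 in rcMSC and -0.53, -2.66 and -3.38 in rbMSC, a difference of 2.54 (exact permutation p = 0.1). The annotated length of Tbx4 is 3254 bases and that of Tbx5 1593. Per length, with 0.05 RPKM added to each value, Tbx4 was at 0.696 times Tbx5 in rcMSC and at 0.166 times in rbMSC. The mean of Tbx4 was the smaller in both groups, but both genes were nearly equal in rcMSC replicate 1 (0.201 and 0.206 RPKM). In rbMSC the added value is close to the Tbx4 level itself (mean 0.0922 RPKM), so the size of that ratio depends on it. Tbx4 (ENSRNOG00000003544) runs from 70731163 to 70760825 and Tbx5 (ENSRNOG00000001399) from 36688014 to 36734885.

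Lmx1b, the LIM homeobox gene of dorsal limb and kneecap, was the other gene with no call. It had 5.68, 6.92 and 8.36 CPM in rcMSC and 5.05, 5.24 and 6.54 CPM in rbMSC. The groups overlapped. The log2 fold change was 0.31, with a 95% interval of -0.07 to 0.70 (edgeR adjusted p = 0.168). Its relative Lmx1a, chosen after its values were seen, was higher in rcMSC, with 9.32 ± 0.29 CPM against 5.42 ± 0.05 CPM in rbMSC (SD, n = 3 each, log2 fold change 0.78, edgeR adjusted p = 0.00033). Lmx1b (ENSRNOG00000017019) lies on chromosome 3 from 16862195 to 16940899.

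**Figure D3:**
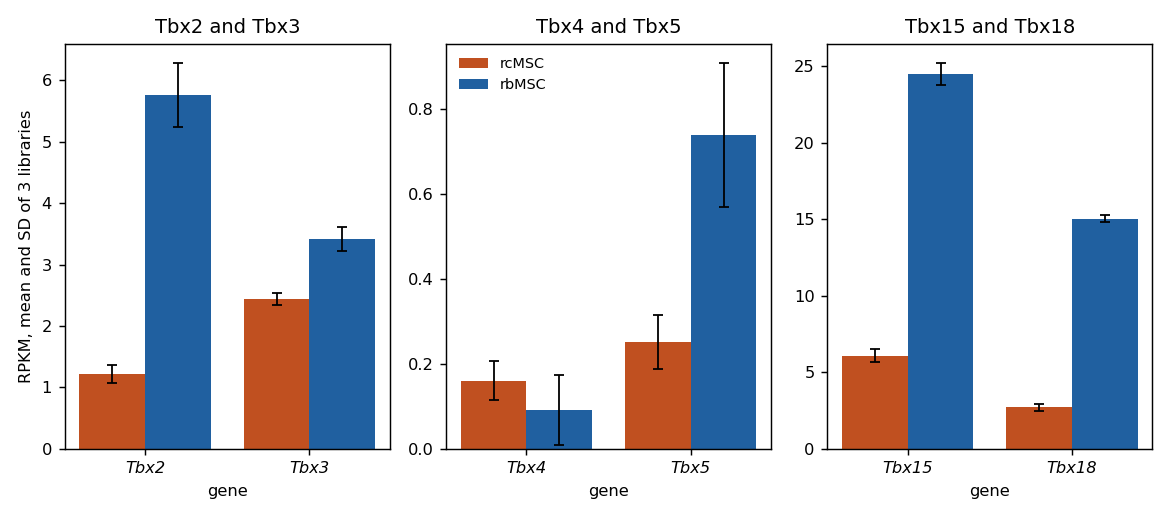
Level per length (RPKM, bars are means and error bars SD of 3 libraries, each panel with its own axis from 0) of 3 pairs of related genes in rcMSC and rbMSC. Tbx2 is below Tbx3 in rcMSC and above it in rbMSC, and Tbx15 is above Tbx18 in both.

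Per length, the order in rcMSC was Shox2 (6.50 RPKM), Tbx15 (6.09), Lmx1b (3.32), Tbx18 (2.70), Tbx3 (2.44), Tbx2 (1.22), Tbx5 (0.252), Tbx4 (0.161), Hand2 (0.111) and Pitx1 (0.0173). In rbMSC it was Shox2 (39.1 RPKM), Tbx15 (24.5), Tbx18 (15.0), Tbx2 (5.76), Tbx3 (3.41), Hand2 (2.77), Lmx1b (2.67), Pitx1 (1.90), Tbx5 (0.738) and Tbx4 (0.0922). Neighbours in this order did not differ beyond their spread for Shox2 and Tbx15, Lmx1b and Tbx18, Tbx18 and Tbx3, Tbx4 and Hand2, and Hand2 and Pitx1 in rcMSC. In rbMSC the same held for Tbx3 and Hand2 and for Hand2 and Lmx1b. Lmx1b stood at rank 3 in rcMSC and at rank 7 in rbMSC, although its own level was not called different. Summed over the 10 genes, the level was 21.8, 23.3 and 23.4 RPKM in rcMSC and 93.5, 95.2 and 99.1 RPKM in rbMSC. Shox2 supplied 27.2% to 29.2% of that sum in rcMSC and 39.3% to 41.9% in rbMSC.

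The genes next to the members on the chromosome were examined, since reads of overlapping genes cannot be told apart without strand. None of the 76 other genes within 500 kb overlapped a member on either strand. Of these, 44 passed the filter, with 6 higher and 18 lower in rcMSC, and their median absolute log2 fold change was 0.351. That is 40.9% lower and 13.6% higher, against 23.2% and 22.6% of all tested genes, and 24 called of 44 in either direction, against 45.8%. Within 250 kb, 26.3% of the 19 tested neighbours were lower and 15.8% higher, so the lower share there was near that of all tested genes. Beside Shox2, Rsrc1 starts 4.01 kb away and differed by -0.52 on the log2 scale (edgeR adjusted p = 0.000176). Beside Tbx2, Bcas3 ends 6.44 kb away and had -0.34 (edgeR adjusted p = 0.00331). Wars2, 33.1 kb from Tbx15, had 0.12 (edgeR adjusted p = 0.447). Rsrc1 and Bcas3 were thus called lower too, and Wars2 was not called, while Shox2, Tbx2 and Tbx15 beside them fell by 2.01 to 2.59 on the log2 scale. The change of Rsrc1 was larger than that of the member Tbx3 (-0.48). Txndc15, 44.8 kb from Pitx1, was higher (0.43, edgeR adjusted p = 0.00276). The nearest tested neighbour of Tbx18, Cep162, lay 445 kb away and was not called.

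Within 500 kb, 7 neighbours were called with a change of at least a factor of 2, of which 5 were lower. Near Pitx1 these were Tifab (log2 fold change -1.60), Rgs14 (-1.28) and Dok3 (-1.26), and the chemokine gene Cxcl14 was higher (1.67). Tifab overlaps another gene on the opposite strand, so its reads cannot be assigned with certainty. Near Shox2, Mlf1 was lower by -1.56 (edgeR adjusted p = 0.026) but was not called with DESeq2 (0.0607) or without rcMSC replicate 1 or rbMSC replicate 1, 2 or 3 (0.0989, 0.0584, 0.0827 and 0.0815), and was -2.16 without rcMSC replicate 2. Near Hand2, AC121415.1 was higher (1.08) and the unnamed lncRNA gene ENSRNOG00000070751 lower (-1.31, edgeR adjusted p = 0.0335). The lncRNA was not called without rcMSC replicate 1 or 2 or rbMSC replicate 1, 2 or 3 (adjusted p = 0.0639 to 0.12), and was -1.99 without rcMSC replicate 3.

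**Figure D4:**
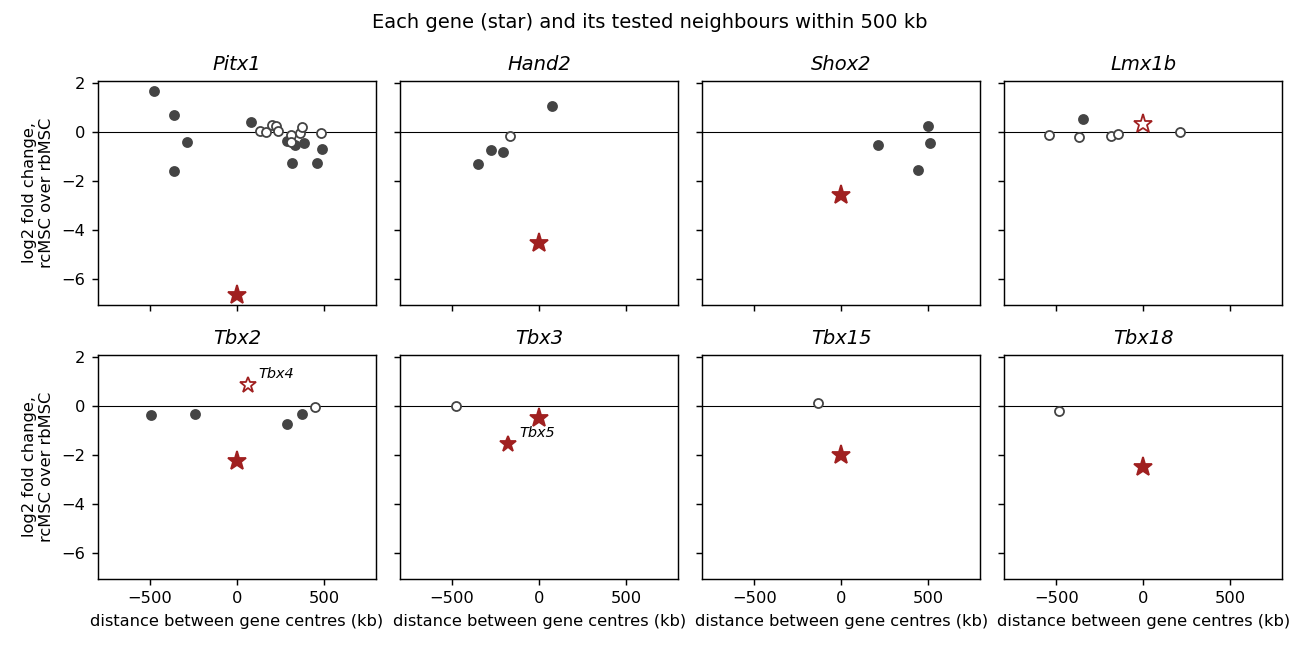
Log2 fold change, rcMSC over rbMSC, of each gene (star) and its tested neighbours within 500 kb (circles) against the distance between gene centres in kb. Filled symbols passed an edgeR adjusted p of 0.05. The Pitx1, Hand2, Shox2, Tbx2, Tbx15 and Tbx18 stars lie below all of their neighbours.

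Other genes of the limb bud moved both ways. The list of 28 secreted signals, receptors and mediators had 18 genes tested, 6 higher, 6 lower and 6 not past the threshold in rcMSC, with a median log2 fold change of -0.04. Of all tested genes, 22.6% were higher and 23.2% lower, or 45.8% in either direction. Rspo2, a WNT enhancer of the limb bud ridge, was higher (log2 fold change 3.66, edgeR adjusted p = 0.00179, or 5.66 without rbMSC replicate 2 and 4.47 with limma voom), as were the BMP receptor Bmpr1b (1.55) and the hedgehog effector Gli2 (0.95). Lower were Aldh1a2, which makes retinoic acid, with 0.473 ± 0.25 CPM in rcMSC and 4.16 ± 0.76 CPM in rbMSC (SD, n = 3 each, log2 fold change -3.14), Cyp26b1, which degrades it (-1.36), and Bmp2 (-0.98). The outgrowth signals Fgf4, Fgf8, Wnt3a and Bmp7 had no count in any library.

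Of 30 other limb bud transcription factors 24 were tested, with 9 higher, 7 lower and 8 not past the threshold, and a median of 0.01. The shares over all tested genes were 22.6% higher and 23.2% lower. Alx4 (log2 fold change 4.24), the ventral limb factor En1 (2.31) and Msx2 (1.85) were higher. Hoxc10, a gene of the hindlimb level of the trunk, had 0.373 ± 0.27 CPM in rcMSC and 48.8 ± 0.60 CPM in rbMSC (SD, n = 3 each), a difference of -7.04 on the log2 scale, or -7.76 without rcMSC replicate 3. Hoxa11, a gene of the middle limb segment, had 4 counts in rcMSC and 230 in rbMSC (-5.89, or -7.14 without rcMSC replicate 3), and Etv4, a target of FGF signalling, was lower by -1.11. Among the remaining T-box genes, 11 of 12 listed symbols were in the table and 3 were tested. Tbx10 was lower, with 0.441 ± 0.098 CPM in rcMSC and 2.64 ± 0.73 CPM in rbMSC (SD, n = 3 each, log2 fold change -2.57, edgeR adjusted p = 9.64e-05). Tbx19 and Mga were not past the threshold, at -0.60 and 0.13 (edgeR adjusted p = 0.171 and 0.0594), and Mga passed without rcMSC replicate 3 (0.00906).

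Of 14 genes named in mouse work as regulated by the members, 11 were tested, with 6 higher, 1 lower and 4 not past the threshold, and a median of 0.28. Over all tested genes, 22.6% were higher and 23.2% lower. The list mixes genes that members switch on with genes that they repress, so its counts and median carry no set direction. The mean level of Fgf10, which Tbx4 and Tbx5 switch on in the mouse limb fields, was 64.2 CPM in rcMSC and 63.4 CPM in rbMSC, a log2 difference of 0.02 (SE 0.08, edgeR adjusted p = 0.86). Gja1, the gap junction gene repressed by Tbx2 in the mouse heart, was higher (0.86, edgeR adjusted p = 3.83e-06), as was Runx2, the bone factor linked to Shox2 (0.72, edgeR adjusted p = 5.95e-05). Col2a1 of cartilage was higher by 2.14 (edgeR adjusted p = 0.0144), but by 1.44 without rcMSC replicate 3, and it was not called without the low-count filter (0.061). The cartilage proteoglycan gene Acan was the 1 lower gene (-3.86, or -4.58 without rcMSC replicate 3). Cdkn1a and Cdkn2a, cell cycle inhibitors held back by Tbx2 and Tbx3, had 0.18 and -0.10 (edgeR adjusted p = 0.234 and 0.583), and Cdkn1a passed without rcMSC replicate 3 (0.32, adjusted p = 9.82e-09). The other inhibitor of the list, Cdkn2b, was higher by 0.28 (edgeR adjusted p = 0.00717).

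**Figure D5:**
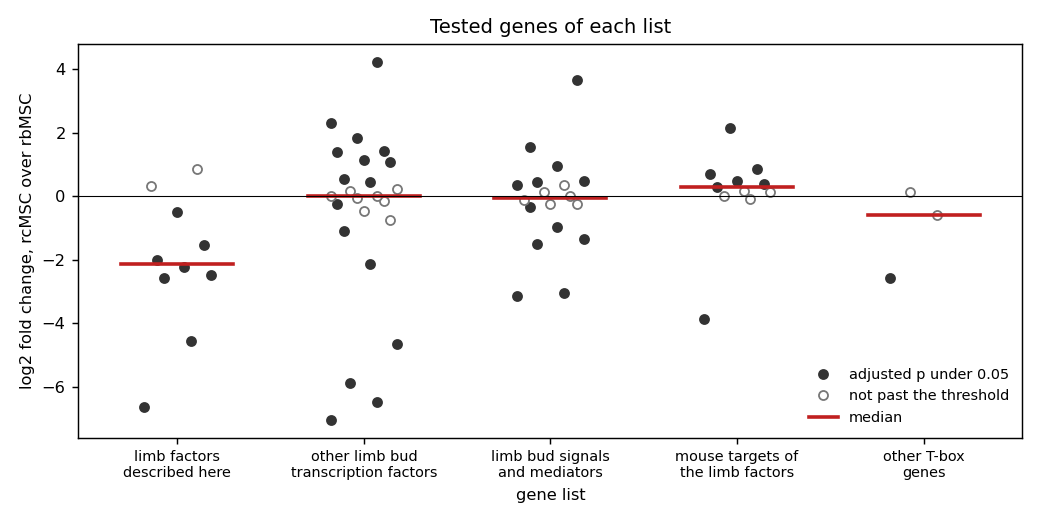
Log2 fold change, rcMSC over rbMSC, of the tested genes of 5 lists, 1 circle per gene, filled where the edgeR adjusted p was under 0.05, with the list median as a line. The 10 limb factors have a median of -2.12 and the other lists lie between -0.60 and 0.28. Hoxd13, at -6.49 among the transcription factors, had 0 counts in rcMSC, so its fitted value depends on the prior count.

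For each member that passed the threshold, the genes with the most similar profile were taken as those with the smallest root mean square difference in centred log2 CPM over the 6 libraries. For Shox2 these were Adarb1 (0.0482), Flvcr2 (0.0635) and Sorbs2 (0.0650), and for Tbx18 they were Fhl2 (0.0613), Fbxo32 (0.0655) and Rgs2 (0.0722). For Tbx15 they included Tnik (0.0544) and Foxc1 (0.0759), and Tbx2 was closest to Hoxd8 (0.0708), MGC108823 (0.107) and Tp53i11 (0.115). Tbx3 was closest to Dot1l (0.0262), Socs7 (0.0268) and Pla2g4a (0.0350), and Tbx5 to Jag2 (0.0941), Crmp1 (0.132) and Serpini1 (0.139). The nearest genes were farther off for Pitx1, with Lama5 at 0.228, Dmp1 at 0.233 and Slc16a12 at 0.234, and for Hand2, with Plin4 at 0.510, Fam13a at 0.532 and Abcc9 at 0.534. The 6 libraries fall into 2 groups, so genes with a like difference between the groups come out as similar.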

How the data were processed

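Gene expression was measured by RNA sequencing with paired reads of 150 nt, per the labels' protocols. Per the same protocols the authors used Trim Galore 0.6.7 and Trimmomatic 0.39 for trimming, STAR 2.7.9a for mapping to mRatBN7.2, and featureCounts 2.0.1 for counting. The submitters' processing notes also list DESeq2 1.20.0. Not given in the sources used here are the strand setting, the annotation release and the treatment of reads with several mapping places. The deposited table holds the authors' raw counts for each gene in each library, and a column of gene lengths.

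Libraries were grouped by title. No label states separate cultures or animals. The p-values therefore cover only the spread among these libraries, and that spread may be technical. All genes were fitted with edgeR 4.0.16 (R 4.3.3), using filterByExpr, TMM scaling, robust quasi-likelihood F tests and Benjamini-Hochberg adjusted p-values, with a threshold of 0.05. Each SE was taken from the fold change and its F statistic. RPKM used the deposited length. Log2 ratios of related genes used counts plus 0.5, and their ratios per length used RPKM plus 0.05. In simulated counts for this comparison (14671 genes tested) the fit recovered 70% of genes changed 1.5-fold, 98% at 2-fold and 100% at 4-fold, with 10 false calls. The changed genes were drawn from better counted genes only, with the same dispersion for all genes and no outlying library. These rates therefore do not extend to scarce genes such as Tbx4 and Tbx5. Intervals from counts cover counting error only.

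The 10 genes and the gene lists were chosen with earlier results of these data known. The text names all 10, up to 3 higher and 3 lower genes of each limb list (largest change past the threshold, mean log2 CPM not below 0), neighbours past the threshold with a change of at least 2-fold, and the 3 genes most like each called one. Other genes were named after their values were seen, and 1 of the genes most like Tbx15 is not reported here.

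Alternatives were RLE and total count scaling, no low-count filter or at least 30 counts in each library of 1 group, DESeq2 1.42.0, limma 3.58.1 voom, dispersions without robust estimation, a replicate block, and each library left out. Promoters came from RefSeq (GRCr8).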

Additional observations from a re-analysis of the deposited data

How the results depend on the processing

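Over 14 alternative settings, the 8 limb factors called lower were called lower in each setting in which they could be tested. With at least 30 counts required in each library of 1 group, 6 were lower, because Tbx5 and Hand2 then fell out of the test, and the limb transcription factor list had 4 lower instead of 7. Of all 12961 genes tested in that setting, 3276 were lower. Without 1 library, 8 limb factors were lower throughout, and 0 to 1 were higher, the 1 being Tbx4 without rbMSC replicate 1 (log2 fold change 1.82, adjusted p = 0.0392). Over all genes, 2794 to 4558 were lower and 2542 to 4512 higher in these fits, of 15055 to 15122 tested. The other T-box genes had 0 to 1 higher without 1 library and 1 without the low-count filter. Leaving out 1 library gave differences of -1.86 to -1.63 for Tbx2/Tbx3, 1.95 to 3.38 for Tbx4/Tbx5 and 0.38 to 0.59 for Tbx15/Tbx18. Within 250 kb, 1 of the 19 tested neighbours had a called change of at least 2-fold, and 0 were lower by that much. Within 500 kb it was 7 of 44, of which 5 were lower. Same-numbered libraries did not deviate together (correlations of -0.027, 0.018 and -0.052). No pairing by number was thus seen, though so few libraries cannot exclude it. With the replicate block 8 limb factors were lower and 0 higher, beside 3251 lower and 3046 higher of all 14836 genes tested. Low counts limit Tbx4, Tbx5, Hand2 and Pitx1. No direction of a member was reversed.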
